A study of Rattus norvegicus with 16 samples.

Results

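Genes of blood clotting and clot removal were followed in left ventricular RNA of rats, 8 in all: Thbd, Procr, Tfpi, F3, Vwf, Plat, Plau and Plaur. They were chosen by name, and every probe set that the platform annotation assigns to 1 of these 8 genes was kept, which gave 13 of the 15866 probe sets tested and 8 of the 10411 genes named. Signals are MAS5 intensities on a linear scale from Affymetrix Rat 230A arrays, with 1 array per rat. The 16 male rats were 12 to 14 weeks of age, and 4 rats made up each group. SH-DE are spontaneously hypertensive (SH) rats that inhaled diesel exhaust (DE) at 2.0 mg/m3, SH-air are SH rats that inhaled air, WKY-DE are Wistar Kyoto (WKY) rats that inhaled the same DE, and WKY-air are WKY rats that inhaled air. WKY is the normotensive control strain of SH. Exposure was whole body, 6 hr per day in the sample records and a shorter time in the methods, on 5 days per week for 4 weeks. None of the groups carried a transgene, and no blood pressure or plasma clotting value is tied to an array in the files used here.

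Clotting starts when tissue factor (F3) on cells outside the vessel lumen meets plasma factor VII. Tissue factor pathway inhibitor (Tfpi) stops this first step. The endothelial receptor thrombomodulin (Thbd) turns thrombin into an activator of protein C, which switches clotting off. Endothelial protein C receptor (Procr) presents protein C to the thrombin–thrombomodulin complex. Von Willebrand factor (Vwf), made by endothelial cells and platelets, tethers platelets to an injured wall. Fibrin is removed by plasmin, which tissue plasminogen activator (Plat) and urokinase (Plau, bound by its receptor Plaur) make from plasminogen. In the heart Thbd, Procr, Vwf and Tfpi are known from endothelial cells, and F3 also from cardiomyocytes.

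All 16 arrays were scaled to 1 mean, but their median signals were highest in WKY-DE. These medians were 209–216 on the WKY-DE arrays and 173–197 on all others. Markers of atrial muscle, which a left ventricular sample should hold little of, differed between the groups. Myl7, the atrial myosin light chain, had signals of 94.2, 1443, 7876 and 187 in SH-DE, 33.5, 154, 33.4 and 75.0 in SH-air, 657, 404, 9630 and 2927 in WKY-DE, and 25946, 4415, 11451 and 9718 in WKY-air. The summed signal of the 6 atrial markers ranged over 13808–35553 in SH-DE, 13420–24917 in SH-air, 14020–43761 in WKY-DE and 34482–98716 in WKY-air. In SH-air the defining markers Myl7, Myl4 and Sln reached at most 154, 163 and 174, so the other atrial markers made up most of its sums. The lowest signal of these defining markers was 9.59, for Sln in SH-DE replicate 4, below the 10th percentile of all values, 16.1. SH-DE replicate 3 and WKY-DE replicate 3 had the highest Myl7 signal of their groups. The lowest signal of the ventricular marker Myl2 on any array was 27748.5. Ventricular markers also differed between groups. The summed signal of 10 of them ranged over 191104–238412 in SH-DE, 241084–263820 in SH-air, 200707–288025 in WKY-DE and 264192–355173 in WKY-air. The dim ventricular marker Irx4 spanned 19.4–68.4 in SH-DE, 17.3–44.8 in SH-air, 6.80–15.7 in WKY-DE and 39.9–90.9 in WKY-air. Kdr and Pecam1, the defining endothelial markers measured, were present on all arrays (Kdr 1610–2315, Pecam1 332–763).

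In the strain comparison without exposure, SH-air against WKY-air, Thbd fell and Tfpi rose in the hypertensive rats. These calls made up 3 of the 13 probe sets, 1 higher and 2 lower, where 3.15% of all probe sets passed. A probe set was called where its Benjamini-Hochberg adjusted p was below 0.05 and its unadjusted p also below 0.01. The median log2 fold change of the 8 genes, each by its probe set of highest mean signal, was −0.43, and that of all probe sets was 0.02. Groups did not overlap for 4 of the 13 probe sets, where 11.3% of all probe sets did not overlap.

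Thbd, the endothelial receptor that turns thrombin into an anticoagulant, was read by 3 probe sets. For 1375951_at, the one of highest mean, the signals were 640, 579, 755 and 653 in SH-DE, 485, 640, 470 and 567 in SH-air, 796, 768, 856 and 778 in WKY-DE, and 720, 930, 778 and 791 in WKY-air. Every SH-air array lay below every WKY-air array, and SH-DE lay below WKY-DE without overlap. Thbd 1375951_at averaged 540 ± 79.0 in SH-air and 805 ± 89.1 in WKY-air (SD, n = 4 each), a log2 fold change of −0.57 (SE 0.13, limma adjusted p = 0.0260). Under DE the strain difference was −0.28 (SE 0.13, adjusted p = 0.351) and did not pass. The strain differences in air and under DE did not differ detectably (interaction 0.28, 95% interval −0.10 to 0.66, limma adjusted p = 0.542). Averaged over air and DE, a comparison added after seeing the data, Thbd 1375951_at fell by 0.42 on the log2 scale in SH (SE 0.09, adjusted p = 0.0138).

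The call of Thbd 1375951_at in SH-air was lost without SH-air replicate 1, 3 or 4 (adjusted p = 0.0726, 0.0622 and 0.0553) and without WKY-air replicate 2, 3 or 4 (adjusted p = 0.0675, 0.0502 and 0.0617). It was also lost in a fit of SH-air and WKY-air alone (adjusted p = 0.114). With the atrial marker level of each array as a covariate its log2 fold change was −0.45 (adjusted p = 0.837), and no member remained called in SH-air against WKY-air. The atrial levels of SH-air and WKY-air (mean log2 8.36–8.99 and 11.42–13.05) did not overlap. Strain and atrial level can therefore not be told apart in air, here or for any other gene given with this covariate. Over the whole array 7 probe sets were called in air with it, against 499 without it. The part of atrial tissue in these differences was not tested. In bulk tissue, fewer cells of a type and less RNA per cell cannot be told apart.

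The second Thbd probe set, 1368901_at, showed a different layout in which WKY-air stood above the other 3 groups. Its signals were 247, 198, 319 and 209 in SH-DE, 177, 199, 271 and 180 in SH-air, 252, 224, 285 and 215 in WKY-DE, and 359, 422, 304 and 393 in WKY-air. SH-air and WKY-DE each lay wholly below WKY-air, and only SH-DE replicate 3, at 319, reached the WKY-air range. Thbd 1368901_at averaged 207 ± 43.9 in SH-air and 369 ± 50.7 in WKY-air, a log2 fold change of −0.80 (SE 0.17, adjusted p = 0.0215). The call was lost without SH-air replicate 1, 2 or 4 (adjusted p = 0.0623, 0.0555 and 0.0694) and without WKY-air replicate 2 or 4 (adjusted p = 0.0554 and 0.0618), in a fit of SH-air and WKY-air alone (0.0734) and with the atrial covariate (−0.49, adjusted p = 0.871).

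For WKY-DE against WKY-air the log2 fold change of Thbd 1368901_at was −0.57 (SE 0.17, adjusted p = 0.0930), which did not pass and passed once the dimmest 40% of probe sets were left out (adjusted p = 0.0476). The DE effect on this Thbd probe set differed between the strains by 0.78 (SE 0.24, adjusted p = 0.243). The third probe set, 1368900_at, spanned 112–269 in SH-DE, 119–263 in SH-air, 154–293 in WKY-DE and 261–362 in WKY-air. Its strain difference in air, −0.69 (SE 0.27, adjusted p = 0.202), had the sign of the other Thbd probe sets and did not pass. Over the 16 arrays the signals of 1375951_at correlated with those of 1368901_at at r = 0.62 and with those of 1368900_at at r = 0.33, and those of 1368901_at with 1368900_at at r = 0.71. WKY-DE lay near WKY-air for 1375951_at and near SH-air for 1368901_at.

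Procr, which presents protein C to the thrombin–thrombomodulin complex, did not pass in any comparison. Its signals were 91.1, 68.0, 119 and 119 in SH-DE, 124, 124, 50.3 and 60.3 in SH-air, 112, 123, 137 and 75.9 in WKY-DE, and 141, 118, 162 and 118 in WKY-air. SH-air replicates 3 and 4 were the lowest arrays for Procr, and the groups overlapped. The log2 fold change of Procr in SH-air against WKY-air was −0.58 (95% interval −1.13 to −0.04, adjusted p = 0.249).

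**Figure D1:**
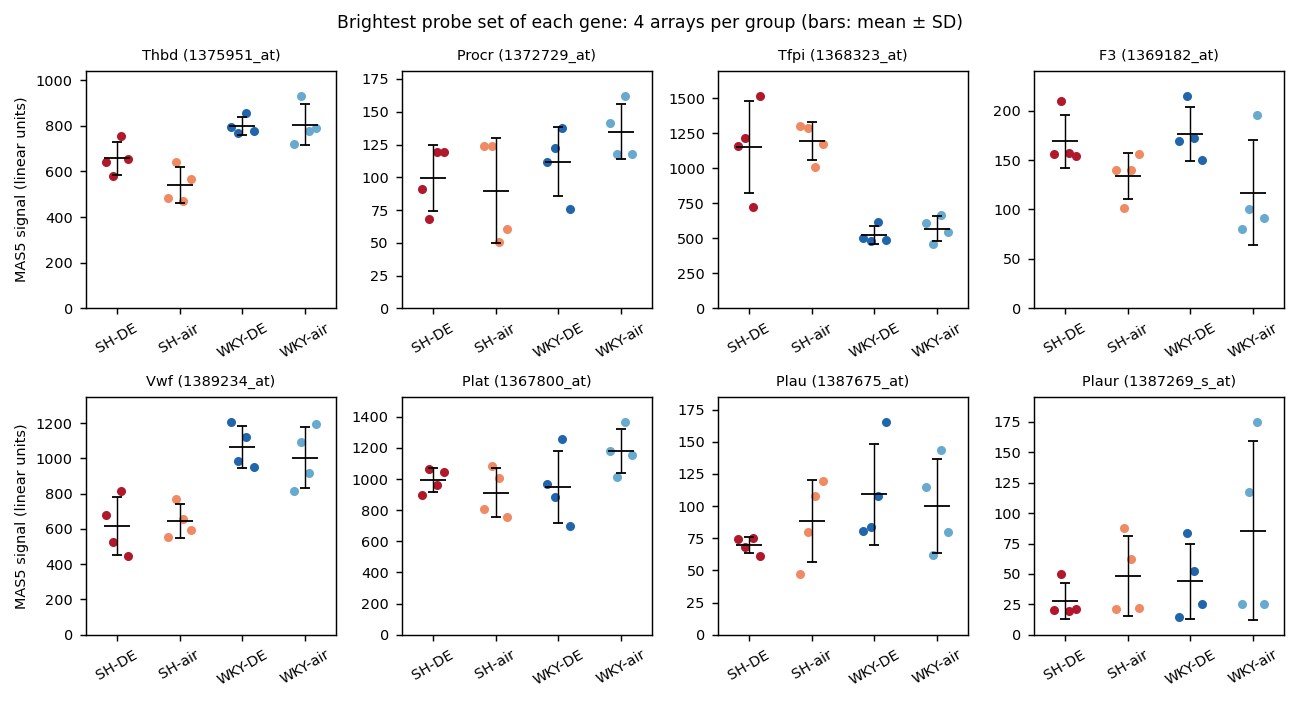
MAS5 signal (vertical axis, linear units from 0) of the probe set of highest mean for each of the 8 genes, 1 point per rat in the SH-DE, SH-air, WKY-DE and WKY-air groups, with the group mean and SD (n = 4) as black bars. Tfpi lies between 722 and 1515 in the 8 SH rats and between 458 and 669 in the 8 WKY rats, and the highest Vwf signal of the SH rats, 814.8, is below the lowest of the WKY rats, 815.6.

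Tfpi, the inhibitor of the tissue factor–factor VII complex, had the largest strain difference of the 13 probe sets in air and under DE. For 1368323_at the signals were 1158, 1213, 722 and 1515 in SH-DE, 1304, 1285, 1009 and 1171 in SH-air, 504, 480, 615 and 485 in WKY-DE, and 610, 458, 669 and 542 in WKY-air. All 8 SH arrays lay above all 8 WKY arrays, and the lowest SH array was SH-DE replicate 3. Tfpi 1368323_at averaged 1192 ± 136 in SH-air and 570 ± 90.7 in WKY-air, a fold of 2.07 (log2 fold change 1.05, SE 0.19, adjusted p = 0.0102), and this call held without each of the 16 arrays in turn. It averaged 1152 ± 327 in SH-DE and 521 ± 63.6 in WKY-DE, a log2 fold change of 1.08 (SE 0.19, adjusted p = 0.0139). Tfpi 1368323_at was the 1 probe set of the 13 called in that comparison, where 0.813% of all probe sets passed.

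The Tfpi call under DE was lost without SH-DE replicate 2 (adjusted p = 0.0565) and without WKY-DE replicate 1, 2 or 4 (adjusted p = 0.0521, 0.0513 and 0.0548). A fit of SH-DE and WKY-DE alone also ended it (adjusted p = 0.116), and without SH-DE replicate 3 the log2 fold change was 1.29 (adjusted p = 7.38e-04). With the atrial covariate Tfpi 1368323_at stayed called under DE (log2 fold change 1.01, adjusted p = 0.0439) and was not called in air (0.77, adjusted p = 0.791), where the atrial levels of SH-air and WKY-air did not overlap. Averaged over both exposures Tfpi 1368323_at rose by 1.07 in SH (SE 0.14, adjusted p = 3.82e-04), and the DE effect did not differ detectably between the strains (interaction 0.03, 95% interval −0.55 to 0.61). With the atrial covariate the averaged Tfpi difference was 0.89 and was not called (adjusted p = 0.210).

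The other Tfpi probe set, 1389780_at, showed no such strain difference. Its signals were 708, 838, 711 and 958 in SH-DE, 539, 476, 810 and 647 in SH-air, 841, 805, 794 and 916 in WKY-DE, and 610, 669, 680 and 634 in WKY-air. WKY-DE lay wholly above WKY-air, and SH-DE overlapped SH-air only through SH-air replicate 3. The strain difference of Tfpi 1389780_at in air was −0.09 (95% interval −0.42 to 0.23, adjusted p = 0.80), an interval that lies wholly below that of 1368323_at (0.64 to 1.46). The DE effect on Tfpi 1389780_at was 0.36 in WKY rats (SE 0.15, adjusted p = 0.193), 0.39 in SH rats (SE 0.15, adjusted p = 0.761) and 0.38 averaged over both strains (SE 0.11, adjusted p = 0.140), and passed in none of them. The probe sets of Tfpi correlated at r = −0.20 over the 16 arrays. Which transcripts or bases each one reads is not given in the sources used here, and a strain difference in a probe's target sequence was not tested.

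RefSeq gives Tfpi more than 1 promoter. Both of its windows are shown because Tfpi 1368323_at carried the strain difference and Tfpi 1389780_at did not. Both windows lie inside the Tfpi gene as annotated (chr3:89939862-89989253), not at its outer end. Each window holds the 250 bases before a start site on the minus strand of GRCr8, with the KLF core (CACCC, searched on both strands) in capitals. The first lies at chr3:89980725-89980974 and the second at chr3:89983544-89983793.
Tfpi start site 1: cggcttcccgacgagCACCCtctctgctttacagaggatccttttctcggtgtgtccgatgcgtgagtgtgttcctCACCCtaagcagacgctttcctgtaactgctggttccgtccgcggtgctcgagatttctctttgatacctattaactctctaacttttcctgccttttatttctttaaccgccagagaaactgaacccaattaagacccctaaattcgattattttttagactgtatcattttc
Tfpi start site 2: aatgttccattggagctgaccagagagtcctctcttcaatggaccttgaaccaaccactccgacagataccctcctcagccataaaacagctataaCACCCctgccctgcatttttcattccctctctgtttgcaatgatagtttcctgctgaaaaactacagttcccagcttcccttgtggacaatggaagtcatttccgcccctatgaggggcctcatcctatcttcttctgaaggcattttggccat
KLF cores begin 235 and 174 bases before the first start and 154 bases before the second, and 49.2% of the 33469 rat promoter windows of this length hold at least 1. The letters TGAGTCA or TGACTCA, the AP-1 motif, occur in neither Tfpi window and in 4.05% of all windows. The ETS core GGAA, also searched on both strands, has 5 and 7 matches in these windows and occurs in 93.2% of all windows. On the printed strand these matches read TTCC, except for the GGAA that begins 63 bases before the second start. These letters are those of the reference genome and not of the SH or WKY rats, and the matches are a description of the windows.

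F3 encodes tissue factor, the membrane protein that starts clotting. Its signals were 156, 209, 157 and 154 in SH-DE, 140, 101, 139 and 156 in SH-air, 169, 215, 172 and 150 in WKY-DE, and 80.6, 100.2, 196 and 91.4 in WKY-air. Both DE groups averaged higher than their air groups, 169 ± 26.8 in SH-DE against 134 ± 23.2 in SH-air and 177 ± 27.2 in WKY-DE against 117 ± 53.2 in WKY-air, and WKY-air replicate 3 was the 1 WKY-air array inside the DE range. The DE effect on F3 was 0.60 in WKY rats (SE 0.22, adjusted p = 0.143), 0.31 in SH rats (SE 0.22, adjusted p = 0.883) and 0.45 averaged over both strains (SE 0.15, adjusted p = 0.200), and passed in none of them. Without WKY-air replicate 3 the F3 effect in WKY rats was 0.84 and passed (adjusted p = 0.0293). F3 did not differ between SH-air and WKY-air beyond its spread (0.23, 95% interval −0.23 to 0.69).

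Vwf, the multimeric protein that binds platelets and carries factor VIII, was lower in SH rats under both exposures. Its signals were 677, 528, 815 and 448 in SH-DE, 556, 772, 657 and 595 in SH-air, 1205, 984, 1121 and 952 in WKY-DE, and 816, 1093, 915 and 1198 in WKY-air. All 8 SH arrays lay below all 8 WKY arrays, with SH-DE replicate 3 at 814.8 and WKY-air replicate 1 at 815.6 as the nearest. The separate comparisons did not pass: the log2 fold change was −0.62 in air (SE 0.18, adjusted p = 0.0822) and −0.80 under DE (SE 0.18, adjusted p = 0.0587). Averaged over both exposures Vwf fell by 0.71 on the log2 scale (SE 0.13, adjusted p = 0.00569). In that averaged comparison, added after seeing the data, 3 of the 13 probe sets passed, Tfpi 1368323_at higher and Vwf and Thbd 1375951_at lower, where 4.07% of all probe sets passed. Groups of 8 did not overlap for 2 of the 13, Tfpi 1368323_at and Vwf, where 1.13% of all did not overlap.

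The Vwf difference in air passed once the dimmest 40% of probe sets were left out and with an intensity trend (adjusted p = 0.0363 and 0.0319). Under DE the Vwf difference passed with those settings, the offset at the 25th percentile, quantile normalization and array weights (adjusted p between 0.0128 and 0.0478), and without SH-DE replicate 3 (−0.95, adjusted p = 0.0157), the SH array with the highest atrial marker level. With the atrial covariate the averaged Vwf difference was −0.55 (adjusted p = 0.498). Of the 15 endothelial markers 1, the nitric oxide synthase gene Nos3, was called lower in SH averaged over both exposures (−0.43, SE 0.10, adjusted p = 0.0303), where the median of the 15 was −0.12. None of the 15 was called in SH-air against WKY-air (median −0.25), and their summed signals were 13941–16230 in SH-DE, 15316–17799 in SH-air, 15346–16629 in WKY-DE and 16578–18991 in WKY-air.

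Markers of endocardium and large vessels were set beside Vwf. Of these 8 markers 7 had a log2 fold change below 0 averaged over both exposures (median −0.33) and 7 under DE (median −0.41), against medians of −0.03 and −0.09 over all probe sets. In air 4 of the 8 lay below 0 (median −0.19), and none of the 8 was called in any comparison. Their summed signals were 1118–1412 in SH-DE, 1083–1398 in SH-air, 1406–1632 in WKY-DE and 1426–1693 in WKY-air, so that SH-air lay below WKY-air without overlap and SH-DE overlapped WKY-DE. The part of these cells in the Vwf difference was not tested. None of the 4 platelet markers on the array was called in that comparison, and their summed signals were 392–687 in SH-air and 477–547 in WKY-air. DE did not move Vwf beyond its spread, with a log2 fold change of 0.09 in WKY rats (95% interval −0.30 to 0.48) and −0.09 in SH rats (95% interval −0.48 to 0.30).

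**Figure D2:**
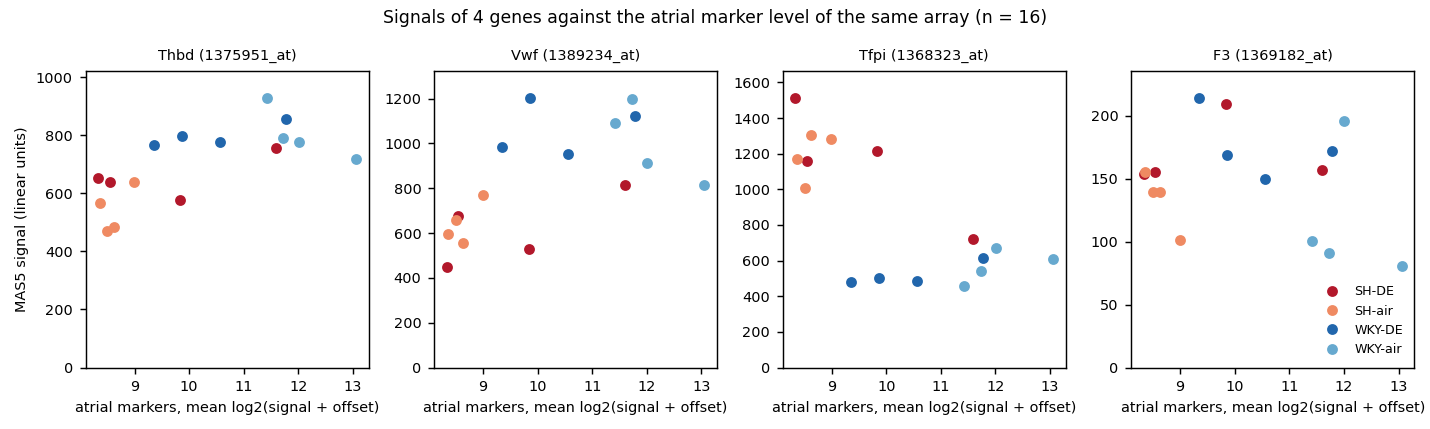
MAS5 signal (vertical axis, linear units) of Thbd 1375951_at, Vwf, Tfpi 1368323_at and F3 against the mean log2(signal + 16.1) of 6 atrial markers on the same array (horizontal axis), 1 point per rat, coloured by group. SH-air arrays lie between 8.36 and 8.99 and WKY-air arrays between 11.42 and 13.05 on the horizontal axis. The array of highest atrial level differs between groups in its place. SH-DE replicate 3, at 11.59, has the highest Thbd and Vwf and the lowest Tfpi signal of its group. SH-air replicate 2, at 8.99, has the highest Thbd and Vwf of its group. WKY-DE replicate 3, at 11.78, has the highest Thbd and Tfpi of its group, and WKY-air replicate 1, at 13.05, the lowest Thbd and Vwf.

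Plat, tissue plasminogen activator, did not pass in any comparison. Its signals were 899, 1063, 963 and 1044 in SH-DE, 804, 1081, 1005 and 756 in SH-air, 965, 883, 1255 and 700 in WKY-DE, and 1183, 1014, 1363 and 1156 in WKY-air. All groups overlapped, and the log2 fold change in SH-air against WKY-air was −0.37 (95% interval −0.74 to −0.01, adjusted p = 0.269). For SH-DE against WKY-DE it was 0.09 (95% interval −0.28 to 0.45).

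Plau, urokinase, was read by probe sets that did not follow each other (r = −0.19 over 16 arrays). For 1398287_at the signals were 99.6, 59.1, 54.0 and 76.5 in SH-DE, 156, 85.9, 45.0 and 87.8 in SH-air, 115, 148, 98.4 and 183 in WKY-DE, and 16.4, 43.1, 21.1 and 80.0 in WKY-air. Every WKY-DE array lay above every WKY-air array. Plau 1398287_at averaged 136 ± 37.5 in WKY-DE and 40.1 ± 29.0 in WKY-air, a log2 fold change of 1.54 (SE 0.35, adjusted p = 0.0398). It was the 1 probe set of the 13 called in this comparison, where 1.88% of all probe sets passed, 217 higher and 81 lower (68 higher and 69 lower after quantile normalization).

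Quantile normalization ended the Plau call (1.33, adjusted p = 0.0682). So did leaving out SH-air replicate 4 (adjusted p = 0.0520), SH-DE replicate 2 (0.0510), WKY-air replicate 1, 2 or 3 (0.0860, 0.0622 and 0.0679) or WKY-DE replicate 1, 2, 3 or 4 (0.0764, 0.0865, 0.0629 and 0.0953), the fit of WKY-DE and WKY-air alone (adjusted p = 0.0989) and the atrial covariate (1.16, adjusted p = 0.237). With the offset at the 25th percentile the Plau log2 fold change was 0.97 and was called (adjusted p = 0.0283). On 6 of 16 arrays this Plau probe set lay below 62.5, the 25th percentile of all values. In SH rats the DE effect on Plau 1398287_at was −0.24 (SE 0.35, adjusted p = 0.955), and the difference between the strains, −1.78 (SE 0.49, adjusted p = 0.212), did not pass.

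The other Plau probe set, 1387675_at, spanned 61.3–75.5 in SH-DE, 47.2–119 in SH-air, 80.6–165 in WKY-DE and 61.9–144 in WKY-air. Its DE effect in WKY rats was 0.12 (95% interval −0.46 to 0.69), and SH-DE lay wholly below WKY-DE with a log2 fold change of −0.50 (SE 0.27, adjusted p = 0.450). The 250 bases before the Plau start lie at chr15:3511988-3512237 on the minus strand of GRCr8. They are shown because 1398287_at was the 1 probe set of the 13 called after DE.
Plau start site 1: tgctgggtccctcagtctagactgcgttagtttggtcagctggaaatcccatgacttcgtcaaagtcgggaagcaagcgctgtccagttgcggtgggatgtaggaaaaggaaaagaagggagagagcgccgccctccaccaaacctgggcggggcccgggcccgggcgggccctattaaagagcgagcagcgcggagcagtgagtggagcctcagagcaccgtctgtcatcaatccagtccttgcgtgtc
This Plau window holds neither the AP-1 letters nor the KLF core, and it holds 4 ETS cores. No capitals are therefore printed in it.

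Plaur, the urokinase receptor, was dim. For 1387269_s_at the signals were 20.6, 49.8, 19.5 and 21.3 in SH-DE, 20.9, 88.0, 62.1 and 21.9 in SH-air, 14.9, 84.0, 52.1 and 24.9 in WKY-DE, and 25.5, 117, 175 and 25.4 in WKY-air, below the 25th percentile of all values on 12 of 16 arrays. Replicates 1 and 4 were low and replicate 2 was high in every group. The replicate numbers share nothing in the labels. Plaur 1371286_at lay below the offset of 16.1 on 13 of 16 arrays. No Plaur comparison passed, and the 95% interval in SH-air against WKY-air ran from −1.60 to 0.63 for 1387269_s_at.

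**Figure D3:**
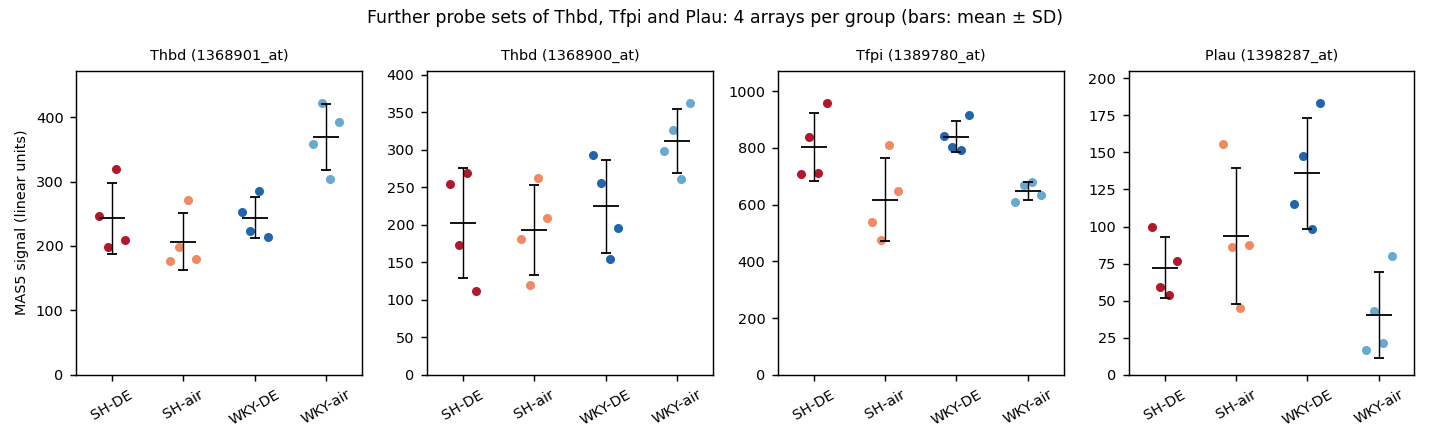
MAS5 signal (vertical axis, linear units from 0) of further probe sets of Thbd, Tfpi and Plau, 1 point per rat in the SH-DE, SH-air, WKY-DE and WKY-air groups, with the group mean and SD (n = 4) as black bars. WKY-DE lies wholly above WKY-air for Tfpi 1389780_at and Plau 1398287_at and wholly below it for Thbd 1368901_at.

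After DE 1 of the 13 probe sets, Plau 1398287_at, was called in WKY rats, where 1.88% of all passed, and none in SH rats. Plau 1387675_at, the Plau probe set of highest mean, was not called. In WKY rats 3 of 13 probe sets did not overlap between WKY-DE and WKY-air (Thbd 1368901_at lower, Tfpi 1389780_at and Plau 1398287_at higher), where 12.7% of all probe sets did not overlap. In SH rats limma called 0 of 13 probe sets and 0% of all probe sets. At an unadjusted p under 0.05 the count was 2 of 13, Thbd 1375951_at (log2 fold change 0.28, SE 0.13) and Tfpi 1389780_at (0.39, SE 0.15), where 6.16% of all probe sets reached that level. SH-DE overlapped SH-air for each of the 13 probe sets, where 4.08% of all did not overlap. The median log2 fold change of the 8 genes after DE was 0.02 in SH rats and −0.06 in WKY rats, and that of all probe sets was −0.001 in SH rats and 0.10 in WKY rats.

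The difference between the DE effects of the strains was called for 0 of 13 probe sets, where 0.0063% of all probe sets passed, and 2 of 13 had an unadjusted p under 0.05, where 12.5% of all did. For DE averaged over both strains, added after seeing the data, 0 of 13 passed where 0.145% of all did, and 3 of 13 (F3, Tfpi 1389780_at and Plau 1398287_at) had an unadjusted p under 0.05 where 15.1% of all did. SH-DE against WKY-air, in which strain and exposure differ together, gave 1 call of 13, Tfpi 1368323_at (0.96, SE 0.19, adjusted p = 0.0214), where 1.94% of all probe sets passed. That call was lost without SH-DE replicate 1, 2 or 4 (adjusted p = 0.0630, 0.0716 and 0.0700) and WKY-air replicate 2 or 4 (0.0569 and 0.0567), in a fit of these groups alone (0.134) and with the atrial covariate (0.76, adjusted p = 0.473). In SH-DE against WKY-DE 4 of 13 probe sets did not overlap, where 8.8% of all did not. In that comparison 73 probe sets of the array were called higher and 56 lower, and 91 higher and 43 lower after quantile normalization.

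**Figure D4:**
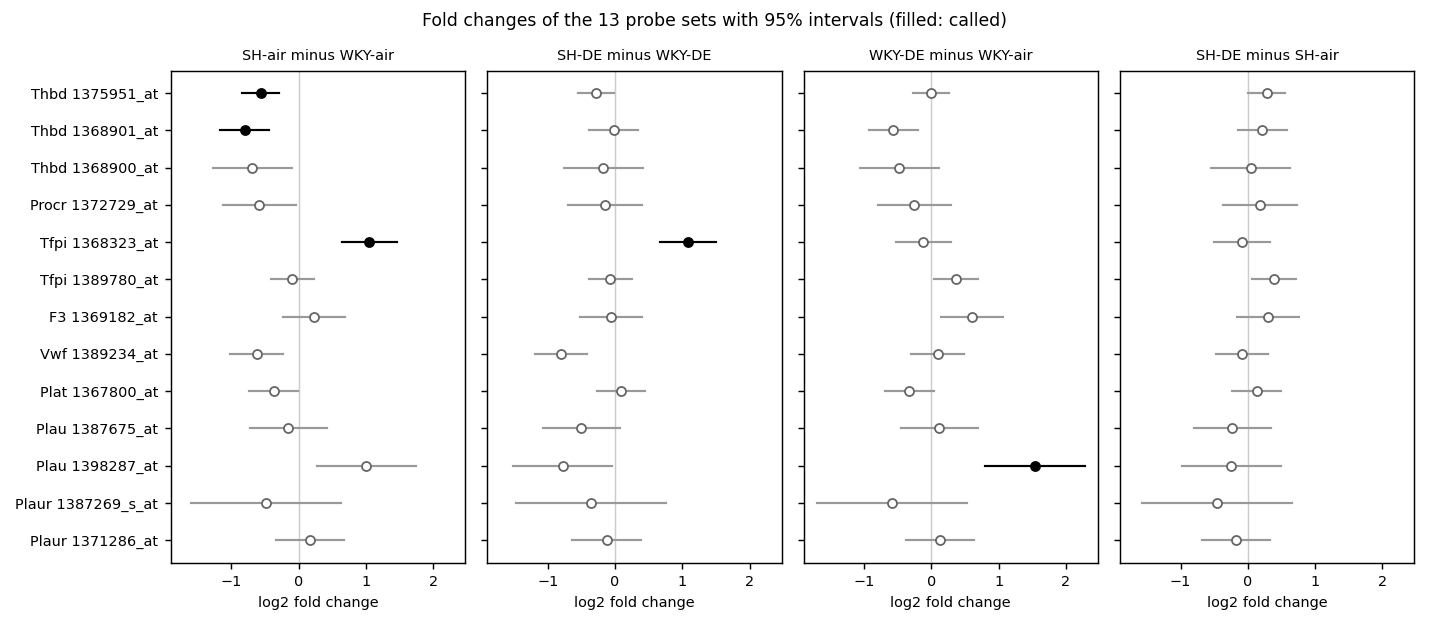
Log2 fold change (horizontal axis, first group minus second) of the 13 probe sets with 95% intervals in 4 comparisons, with filled points for probe sets called. Tfpi 1368323_at is called higher in SH-air and in SH-DE, Thbd is called lower in SH-air for 2 of its probe sets, Plau 1398287_at is called higher in WKY-DE, and no point is filled in SH-DE minus SH-air.

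Beyond these 8 genes, 80 other genes of clotting, its inhibitors, plasminogen, thrombin receptors, factor processing and platelets were listed, of which 57 were on the array by annotation. Of these 57 genes 1 rose and 3 fell in SH-air relative to WKY-air (7.02%, where 3.15% of all probe sets were called), with a median log2 fold change of 0.07. In WKY-DE against WKY-air 1 rose and 0 fell (1.75%, against 1.88% of all probe sets), and in SH-DE against SH-air 0 of 57 passed (0% of all). In SH-DE against WKY-DE 0 rose and 1 fell (1.75%, against 0.813% of all), and in SH-DE against WKY-air 0 rose and 2 fell (3.51%, against 1.94% of all). Averaged over both exposures 3 of the 57 fell in SH (5.26%, against 4.07% of all): Cd9, F2r and Tpst1. The shares were not tested against those of the array.

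Of the 9 clotting factors measured only F2, which encodes prothrombin, was called, and its signal was low in the heart. It had 61.2, 65.8, 118 and 86.1 in SH-DE, 106, 94.7, 109 and 107 in SH-air, 86.1, 94.9, 74.8 and 139 in WKY-DE, and 7.38, 32.5, 49.6 and 45.4 in WKY-air. WKY-air lay below the other 3 groups without overlap. F2 rose by 1.37 in SH-air (SE 0.28, adjusted p = 0.0169) and by 1.28 in WKY-DE (SE 0.28, adjusted p = 0.0385), both against the same WKY-air arrays. The F2 call in WKY-DE was lost without SH-air replicate 4 (adjusted p = 0.0505), WKY-air replicate 1, 2 or 4 (0.0593, 0.0645 and 0.0535) or any WKY-DE replicate (0.0594–0.0915), with an offset of 1 (0.0622), after quantile normalization (0.0815), in a fit of WKY-DE and WKY-air alone (0.119) and with the atrial covariate (0.181). The F2 call in SH-air held without each array in turn and was lost in a fit of SH-air and WKY-air alone (0.0794) and with the atrial covariate (1.27, adjusted p = 0.730). With the offset at the 25th percentile both F2 calls held at smaller log2 fold changes, 0.82 in SH-air and 0.75 in WKY-DE.

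Of 12 plasminogen system genes 3 were called in some comparison. Anxa2 and S100a10, which together form a cell surface receptor that binds plasminogen and Plat, both fell in SH-air. Anxa2 averaged 2342 ± 461 in SH-DE, 2332 ± 347 in SH-air, 2382 ± 254 in WKY-DE and 3696 ± 489 in WKY-air, with WKY-air above all other arrays. It fell by 0.66 in SH-air against WKY-air (SE 0.16, adjusted p = 0.0330), and −0.63 in WKY-DE did not pass (SE 0.16, adjusted p = 0.0553). The Anxa2 call in SH-air was lost without SH-air replicate 1, 2 or 4 (adjusted p = 0.0679, 0.0868 and 0.101) and WKY-air replicate 1, 2 or 4 (0.0875, 0.0603 and 0.0741), and in a fit of these groups alone (0.0906). Anxa2 passed in WKY-DE with the offset at the 25th percentile, without the dimmest 40% of probe sets, with an intensity trend and with array weights (adjusted p between 0.0176 and 0.0359). In SH-DE against WKY-air Anxa2 fell by 0.67 (adjusted p = 0.0458), a call lost without any 1 of 13 of the 16 arrays (adjusted p up to 0.135), with an offset of 1 (0.0530), after quantile normalization (0.0503), in a fit of these groups alone (0.156) and with the atrial covariate (−0.29, adjusted p = 0.724).

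S100a10 had 1166, 1125, 1401 and 1173 in SH-DE, 781, 970, 821 and 749 in SH-air, 1052, 1084, 1267 and 1054 in WKY-DE, and 1563, 1296, 1103 and 1173 in WKY-air. SH-air lay below the other 3 groups without overlap. S100a10 fell by 0.61 in SH-air against WKY-air (SE 0.13, adjusted p = 0.0229), a call lost without SH-air replicate 1 or 4 (adjusted p = 0.0608 and 0.0715) and WKY-air replicate 1 (0.0615), and in a fit of these groups alone (0.105). For SH-DE against SH-air its log2 fold change was 0.54 (SE 0.13, adjusted p = 0.628). Of 13 fibroblast markers 8 were called lower in SH-air against WKY-air, where 1.79% of all probe sets were called lower. Their summed signals were 23312–25838 in SH-DE, 19462–22987 in SH-air, 22728–29450 in WKY-DE and 30233–38057 in WKY-air. WKY-air stood apart in these sums, as it did for Anxa2, whereas SH-air stood apart for S100a10. With the atrial covariate the SH-air difference was −0.14 for Anxa2 (adjusted p = 0.960) and −0.24 for S100a10 (adjusted p = 0.911). The part of fibroblasts was not tested.

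Cpb2, known from liver as the source of a carboxypeptidase that protects fibrin from plasmin, had its lowest signals in SH-DE and its highest in WKY-DE. Its signals were 30.5, 19.4, 30.4 and 86.2 in SH-DE, 55.4, 107, 78.7 and 105 in SH-air, 163, 123, 111 and 175 in WKY-DE, and 71.5, 80.7, 60.1 and 84.5 in WKY-air. The DE groups did not overlap. In SH-DE all arrays but replicate 4 lay below 62.5, the 25th percentile of all values, and near the offset of 16.1. Cpb2 averaged 41.7 ± 30.2 in SH-DE and 143 ± 31.1 in WKY-DE, a log2 fold change of −1.57 (SE 0.28, adjusted p = 0.0128), and the call was lost without SH-DE replicate 2 (adjusted p = 0.0514) and WKY-DE replicate 1 or 4 (0.0521 and 0.0548), and in a fit of these groups alone (0.111). With the offset at the 25th percentile the Cpb2 log2 fold change was −1.01 and was called (adjusted p = 0.00687). The Cpb2 interaction was −1.72 (SE 0.39, adjusted p = 0.145) and passed without SH-DE replicate 4 (−2.04, adjusted p = 0.0316). None of the 6 liver markers measured was called for SH-DE against WKY-DE or for SH-air against WKY-air. Over all arrays Alb ranged over 26.6–146 and Apoa1 over 6.27–69.7, whereas Ttr was brighter, at 600–924.

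Among 13 platelet genes only Cd9, a tetraspanin of platelets and many other cells, was called in a comparison of single groups. Cd9 averaged 1421 ± 133 in SH-DE, 1307 ± 130 in SH-air, 1519 ± 164 in WKY-DE and 2160 ± 291 in WKY-air. WKY-air lay above the other 3 groups without overlap. Cd9 fell by 0.71 in SH-air (SE 0.13, adjusted p = 0.00913), and by 0.59 in SH-DE, against the same WKY-air arrays (SE 0.13, adjusted p = 0.0304). The SH-air call of Cd9 held without each array in turn, and was lost in a fit of SH-air and WKY-air alone (adjusted p = 0.0610) and with the atrial covariate (−0.69, adjusted p = 0.683). The SH-DE call of Cd9 was lost without SH-DE replicate 1, 2 or 4 (adjusted p = 0.0733, 0.0872 and 0.0509) and WKY-air replicate 1, 3 or 4 (0.0825, 0.0598 and 0.0637), in a fit of these groups alone (0.130) and with the atrial covariate (−0.58, adjusted p = 0.414).

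None of the 9 anticoagulant proteins was called. Pros1, protein S, had the lowest p among them (−0.70 in SH-air, SE 0.20, adjusted p = 0.0695). Of 5 thrombin receptor genes F2r, the main thrombin receptor, fell by 0.54 in SH over both exposures (SE 0.14, adjusted p = 0.0361), a call lost after quantile normalization (adjusted p = 0.0582), with the atrial covariate (−0.33, adjusted p = 0.778) and without SH-DE replicate 1, 2 or 4, SH-air replicate 1, 2 or 3, WKY-DE replicate 1, 2 or 3, or WKY-air replicate 1 or 3 (adjusted p = 0.0564–0.0733). F2rl2, a thrombin receptor of the same family, had a log2 fold change of 1.03 in WKY-DE (SE 0.25, adjusted p = 0.0515). Of 9 factor processing genes Tpst1, a tyrosylprotein sulfotransferase, fell by 0.49 in SH over both exposures (SE 0.10, adjusted p = 0.0120), and its value with the atrial covariate was −0.46 (adjusted p = 0.462).

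**Figure D5:**
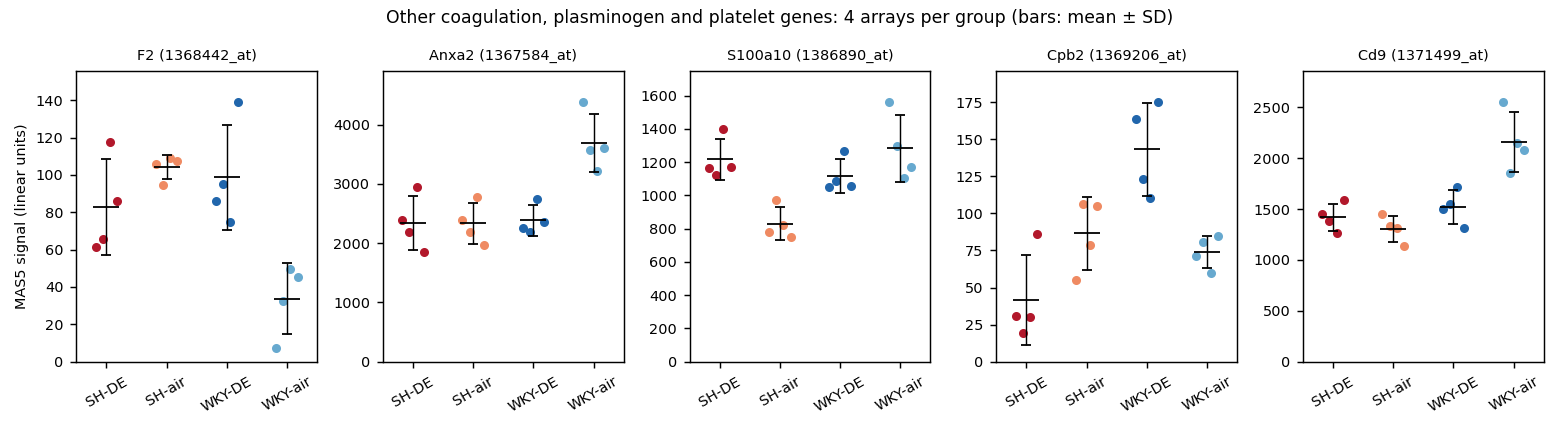
MAS5 signal (vertical axis, linear units from 0) of F2, Anxa2, S100a10, Cpb2 and Cd9, 1 point per rat in the SH-DE, SH-air, WKY-DE and WKY-air groups, with the group mean and SD (n = 4) as black bars. WKY-air stands apart for F2 (lowest), Anxa2 and Cd9 (highest), SH-air is lowest for S100a10, and SH-DE lies below WKY-DE for Cpb2.

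Genes whose log2 signals followed the 8 genes most closely over the 16 arrays were sought among 5204 or 5205 genes with a mean signal above the median. The points share their arrays, groups and scaling, and the correlations are a description. Tfpi 1368323_at followed Pphln1 (r = 0.96, and 0.81 after the group means were removed) and Rras2 (r = 0.96 and 0.75). Thbd 1375951_at followed Rhoj (r = 0.93 and 0.69), a small GTPase of endothelial cells, and Stat3 (r = 0.90 and 0.68). Vwf followed the globin gene Hba-a3 (r = 0.91 and 0.75) and Synm (r = 0.91 and 0.72).

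F3 followed Tsc22d3, a gene known to respond to glucocorticoids, at r = 0.92, and at 0.93 after the group means were removed, the highest within-group value of the 16 pairs. Its next gene, Ntpcr, had r = 0.82. Plat followed Bmpr2 and Thbs4 (r = 0.84 and 0.83), Procr followed Pcbp2 and Lima1 (0.84 and 0.80), Plau 1387675_at followed Osbp and Mkks (0.75 and 0.74), and Plaur followed Zfp36l1 and Pip4k2c (0.67 and 0.66). For Plaur and Zfp36l1 the correlation fell to 0.25 without the 2 arrays farthest from the median.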

How the data were processed

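The values the authors deposited are linear intensities, 1 for each probe set on each array, which the submitters' processing notes credit to MAS5 without a version. From the values, the mean of every array is 500 once the outer 2% at either end is trimmed. The methods describe another summary (RMA) for the study's own gene lists, which was not used here.

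The 57 control probe sets were left out. To the intensities of the other 15866 an offset of 16.1, at the table's 10th percentile, was added before taking log2, so fold changes of dim genes are understated. The 4 group means were fitted in 1 linear model of 16 arrays with limma 3.58.1 in R 4.3.3 (12 residual and 2.68 prior degrees of freedom), and two-sided p-values were adjusted over all 15866 probe sets by Benjamini-Hochberg. The p-values measure the spread between 4 rats per group, and the number of arrays limits the precision. The model was tested on simulated data.

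Of the probe sets, 12783 have 1 gene in the platform annotation, 312 have several and 2771 are not in it, and 12748 symbols were updated through Entrez identifiers. A gene is represented by its probe set of highest mean. All probe sets of the 8 genes are named. Of the other lists, genes called in any comparison are named, up to 4 per list, and otherwise the 1 of lowest p, with 1 further thrombin receptor of lowest p in the comparisons planned. Of cell type markers, totals and up to 3 defining markers are named. For each of the 8 genes the 2 most correlated genes are named. Members, lists and tests were chosen with earlier results of these data known.

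Replicate numbers were compared across groups by the deviations of their arrays from the group means. The alternatives were a stricter threshold, other offsets, quantile normalization, array weights, a filter on dim probe sets, robust moderation with an intensity trend, a block for the replicate number, a fit of the compared groups alone, an atrial marker covariate and leaving out each array. Promoter windows are from RefSeq GRCr8, whose table matched 4 of the 8 genes. Probe sequences were not compared with strain variants.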

Additional observations from a re-analysis of the deposited data

Results flagged for a closer look

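In 88 groups of 4 arrays (22 probe sets by 4 groups) the highest or lowest array was set against the rest by Dixon's ratio, and 5 groups exceeded its critical value for 4 values, where chance alone passes about 1 in 20 groups. F3 stood apart in SH-DE replicate 2, at 209 against 154–157 in the other SH-DE arrays. F3 also stood apart in WKY-air replicate 3, at 196 against 80.6–100.2 in the other WKY-air arrays, the array without which its DE effect in WKY rats passed. Plaur 1387269_s_at was 49.8 in SH-DE replicate 2 against 19.5–21.3 in the others. Cpb2 was 86.2 in SH-DE replicate 4 against 19.4–30.5 in the others, and the difference between SH-DE and WKY-DE was called with and without that array (adjusted p = 0.0128 and 0.00117). S100a10 was 1267 in WKY-DE replicate 3 against 1052–1084 in the others, an array whose atrial marker level was the highest of its group. No difference between the DE effects of the strains was called for any of the 13 probe sets.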

How the results depend on the processing

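Changing the settings moved the counts of calls among the 13 probe sets. At an adjusted p under 0.01 all counts for single group pairs were 0. In SH-air against WKY-air the count of 3 became 4, with Vwf added, without the dimmest 40% of probe sets or with an intensity trend, 1 (Tfpi 1368323_at) with the compared groups alone, 0 with the atrial covariate, and 1 to 3 without single arrays. In WKY-DE against WKY-air the count of 1 became 0 after quantile normalization, 0 with the compared groups alone, 0 with the atrial covariate, and 0 to 1 without single arrays. In SH-DE against WKY-DE the count of 1 became 2, with Vwf added, with the offset at the 25th percentile, quantile normalization, without the dimmest 40% of probe sets, with an intensity trend or with array weights, 0 with the compared groups alone, and 0 to 2 without single arrays. In SH-DE against WKY-air the count of 1 became 2 with the offset at the 25th percentile, an intensity trend or array weights, 3 without the dimmest 40%, 0 with the compared groups alone, 0 with the atrial covariate, and 0 to 3 without single arrays. Averaged over both exposures the 3 strain calls became 4, with Thbd 1368901_at added, without the dimmest 40% or with array weights, 2 (Tfpi 1368323_at and Vwf) at an adjusted p under 0.01, 0 with the atrial covariate, and 3 to 4 without single arrays (4 without SH-air replicate 3 or SH-DE replicate 3). The cause of these changes was not tested, except that fitting the compared groups alone leaves fewer arrays in the model.

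As a block, the replicate number gave counts of 2 in SH-air (without Thbd 1375951_at, adjusted p = 0.0595), 1 in WKY-DE, 0 in SH-DE against WKY-DE and 0 in SH-DE against WKY-air (Tfpi 1368323_at, adjusted p = 0.0520 and 0.0556), and 3 averaged over both exposures. With it the calls of S100a10 in SH-air (adjusted p = 0.0529) and of Cd9 and Anxa2 in SH-DE against WKY-air (0.0632 and 0.0564) were lost. The deviations of same-numbered arrays from their group means were close to uncorrelated (24 pairs, r from −0.10 to 0.05). A batch shared by same-numbered arrays that moves only some probe sets was not tested.

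Among all probe sets, whose called shares stand beside the members' counts, the calls moved by more than 1.5 times. In SH-air against WKY-air they were 499 in the model of all arrays, 113 at an adjusted p under 0.01, 174 with the compared groups alone, 315 with the block, 7 with the atrial covariate, 766 without the dimmest 40% and 752 with an intensity trend, and 249 to 319 without SH-air replicate 1, 2 or 4 or WKY-air replicate 1 or 4. In WKY-DE against WKY-air they were 298, 4, 35, 113, 0, 639 and 667 under the same settings, 137 after quantile normalization, 536 with the offset at the 25th percentile and 529 with array weights. Without WKY-DE replicate 2 they were 43, without WKY-air replicate 1 they were 46, and without another WKY-DE array, WKY-air replicate 2 or 4 or SH-air replicate 4 they were 79 to 194. In SH-DE against WKY-DE they were 129, and 34 to 283 over the settings, with 67 to 83 without SH-DE replicate 1 or 2 or WKY-DE replicate 1, 2 or 4 and 212 without SH-DE replicate 3. In SH-DE against WKY-air they were 308, and 11 to 607 over the settings, with 103 to 199 without SH-DE replicate 1, 2 or 4 or WKY-air replicate 1, 2 or 4 and 508 without SH-DE replicate 3. Averaged over both exposures the 646 strain calls were 27 to 944 over the settings and 425 without SH-DE replicate 2, and the 23 calls of DE averaged over both strains were 0 to 128 over the settings and 0 to 35 without single arrays. The median log2 change over the whole array in WKY-DE was 0.01 after quantile normalization, against 0.10. No called fold change of the genes named changed its sign under any alternative, and 108 values that were not called did, each of a size of 0.24 or less. Procr, F2, F2rl2, Cpb2, both Plau and both Plaur probe sets are among the dimmest 40% and have no value without them.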
